A study of Homo sapiens with 10 samples.

Results

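The genes of the G1/S transition and of DNA replication were examined as one group across 3 subsets of sorted MDA-MB-231 breast cancer cells (BCCs). The group was a list of 48 genes that cover the loading and activation of the replicative helicase, the polymerases and other proteins of the fork, the supply of nucleotides, the assembly of new chromatin, and the cyclins and regulators of the G1/S step. A listed gene was measured where a deposited probe set carried its symbol and no other. 34 of the 48 genes had such a probe set, and all 34 passed the filter on low values, among 7644 genes that passed it in the series. The other 14, MCM5, ORC1, GINS3, GINS4, CDC45, CDC7, PRIM1, PCNA, RPA2, RPA3, CHAF1B, SLBP, UHRF1 and E2F1, are not analysed here.

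A cell prepares its origins of replication in G1, when the origin recognition complex with CDC6 and CDT1 loads the MCM helicase onto DNA. At the G1/S boundary cyclin E with CDK2 and the kinase CDC7 start the assembly of the active helicase from MCM, CDC45 and GINS, after which primase and the polymerases copy the DNA. Many of these genes are known targets of the E2F transcription factors, so that their transcripts accumulate together in late G1 and S phase of dividing cells.

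MDA-MB-231 is a human line of basal-like breast cancer. Its cells had been given GFP driven by the Oct4A promoter (the plasmid pEGFP1-Oct3/4, with neomycin selection) and were sorted by GFP intensity with no further treatment. Oct4hi BCCs were the brightest 5% and Oct4low BCCs the dimmest 5% of the cells, while Oct4med BCCs lay between them. These gates are those of the labels and methods, and the main text of the study gives other shares for Oct4med and Oct4low BCCs. All subsets thus shared the line, the plasmid and the selection, and were separated by the reporter signal alone. Total RNA was hybridized to 10 Human Genome U133 Plus 2.0 arrays, with 4 arrays for Oct4low, 2 for Oct4med and 4 for Oct4hi BCCs, described as biological replicates from 4 experiments. The reporter stands for Oct4A, and the transcript of Oct4A itself is not analysed here. RNA of a whole sorted subset was measured, so a smaller share of cells in S phase and less of a transcript in each cell cannot be told apart.

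Values are log2 intensities, in which a difference of 1 is a doubling, and levels of different probe sets are not compared as amounts of RNA. A change was called where the adjusted p-value of limma's moderated test, fitted over all probe sets tested, was below 0.05, and a gene was followed through its brightest probe set. No array stood apart from its subset, with correlations of 0.987 to 0.994 between arrays of the same subset. Of the 8 genes listed as marks of MDA-MB-231 cells, 6 had a probe set. CD44, CAV1, ANXA1 and EGFR, 4 of these, were at or above the array median throughout. The summed intensity of the 6 was 14873 to 15700 in Oct4low, 13574 to 13642 in Oct4med and 10802 to 11044 in Oct4hi arrays. CD44, CAV1 and ANXA1 were called lower in Oct4hi than Oct4low BCCs (-0.35, -0.35 and -0.65). EGFR, at 5.72 to 6.30, was called higher in Oct4med than Oct4low BCCs (0.36, limma adjusted p = 0.0208). The vimentin probe set, for a gene that marks this line, was dim at 3.73 to 4.35. Markers of luminal breast cells summed to 671 to 706 in Oct4low, 561 to 621 in Oct4med and 588 to 624 in Oct4hi arrays. Of these, GATA3 was lower than in Oct4low by -0.76 in Oct4hi (limma adjusted p = 7.27e-05) and -0.38 in Oct4med BCCs (0.0285). TFF1 was lower by -0.48 (0.0147) and -1.32 (0.00017). The other luminal markers tested were not called against Oct4low. For leukocytes the sums were 183 to 207, 171 to 217 and 172 to 187, with PTPRC, their defining marker, near the floor of the arrays at 2.85 to 3.27. The other leukocyte markers were not at the floor, and 3 of the 5 were at or above the array median in all arrays, CD3E (5.08 to 5.69), CD79A (5.43 to 6.0) and ITGAM (5.22 to 5.85). For stromal cells the sums were 479 to 593, 442 to 467 and 505 to 534. LUM was near the floor, while COL1A1 (7.92 to 8.60), PDGFRB (6.88 to 7.33) and DCN (5.25 to 5.83) were at or above the array median in all arrays, and COL1A1 was lower in Oct4med than Oct4low BCCs (-0.42, limma adjusted p = 0.0232). Markers of erythroid cells summed to 215 to 238 in Oct4low, 319 to 325 in Oct4med and 312 to 349 in Oct4hi arrays. Of these markers HBE1, an embryonic globin, was higher than in Oct4low by 0.73 in Oct4hi (limma adjusted p = 4.57e-05) and 0.68 in Oct4med BCCs (0.00049), GATA1 did not pass (0.00 and 0.15), and ALAS2 was near the floor. The part of these markers in the changes below was not tested. The probe set for the 5 prime end of 28S ribosomal RNA measured 12.64 and 12.77 in Oct4med against 13.53 to 13.70 in the 8 other arrays, and whether RNA quality moved with the Oct4med values was not tested.

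Replication genes were at their lowest in Oct4low BCCs. The mean of the Oct4low arrays was the lowest of the 3 subsets for 28 of the 34 genes (82.4%, against 33.7% of all genes tested) and the highest for none of them (26.3% of all genes). Oct4med BCCs had the highest mean for 19 genes and Oct4hi BCCs for 15. After each gene was centred on its mean over the 10 arrays, the median of the 34 genes was -0.138, -0.184, -0.123 and -0.14 in the 4 Oct4low arrays, 0.115 and 0.206 in the Oct4med arrays, and 0.116, 0.143, 0.076 and 0.077 in the Oct4hi arrays. All Oct4low arrays therefore lay below all others, whereas the Oct4med and Oct4hi arrays overlapped. The replication genes varied little among replicates, with a median SD of 0.07 in Oct4low, 0.08 in Oct4med and 0.06 in Oct4hi arrays. Over all genes it was 0.12, 0.11 and 0.11, and the genes compared were not matched for intensity.

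**Figure D1:**
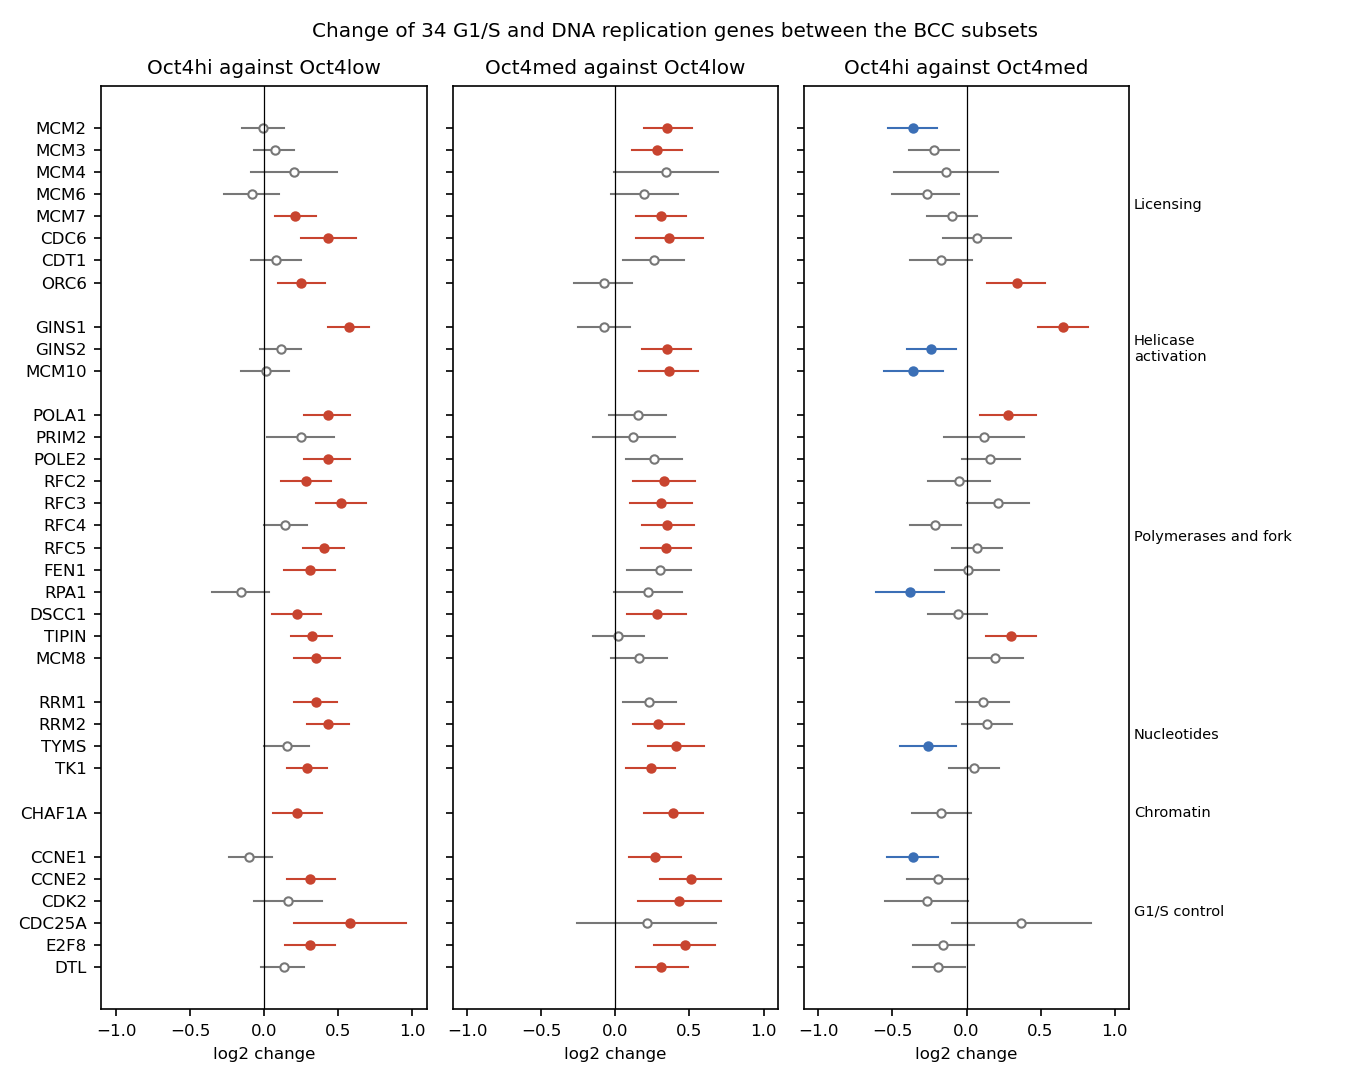
Change of each of the 34 measured genes in the 3 comparisons, with log2 change on the horizontal axis and the genes grouped by role. Points are limma estimates, bars are 95% confidence intervals, red and blue mark calls higher and lower, and open grey points were not called. Against Oct4low BCCs the called genes all lie to the right of 0, and between Oct4hi and Oct4med BCCs they lie on both sides.

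Against Oct4low BCCs, the Oct4hi BCCs had higher levels of 20 of the 34 replication genes and lower levels of none. Over all genes tested, 20.4% were called higher and 14.7% lower. These shares depend on the filter on low values. With a stricter filter at the 75th percentile, 21 of 33 replication genes were higher, against 34% of 4493 genes. The median change of the 34 genes was 0.25, with a range of -0.16 to 0.58, and 30 were positive. Over all genes the median was 0.02 and 52.8% were positive. The arrays did not overlap for 19 of the 20, where 18.5% of all genes were called higher without overlap, and DSCC1 was the exception. When each array was left out in turn, 15 to 20 genes were called higher and none lower. The count was 13 after the values were quantile normalized again, when CHAF1A, DSCC1, FEN1, MCM7, ORC6, RFC2 and TK1 lost their calls, and 12 of the 20 genes that remained when probe sets with cross-hybridizing suffixes were left out.

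The Oct4med BCCs also had higher levels of 20 of the 34 genes than Oct4low BCCs and lower levels of none. In this comparison only 5.68% of all genes were called higher and 11.7% lower. The median change was 0.29, with a range of -0.08 to 0.51, and 32 genes were positive. Over all genes the median was 0.03 and 54.6% were positive. The arrays of the subsets did not overlap for any of the 20 genes, where 5.64% of all genes were called higher without overlap. This count rests on 2 Oct4med arrays. It fell to 6 when Oct4med replicate 2 was left out, to 11 for Oct4med replicate 1 and to 12 for Oct4low replicate 2, and was between 16 and 19 without any other array. It was also 9 with no filter on low values and 10 with the arrays of only these subsets in the fit. An ordinary t-test with no sharing of variance between genes, unlike the random variance model of the study, also gave 10.

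Both comparisons used the same 4 Oct4low arrays, so the genes they share are given as a count only. 11 genes were higher in both subsets, CCNE2, CDC6, CHAF1A, DSCC1, E2F8, MCM7, RFC2, RFC3, RFC5, RRM2 and TK1. 9 were called only in the comparison of Oct4hi with Oct4low and 9 only in that of Oct4med with Oct4low. The direct comparison of Oct4hi with Oct4med BCCs tests that difference. Here 4 of the 34 genes were higher in Oct4hi BCCs, GINS1, ORC6, POLA1 and TIPIN, and 6 were lower, CCNE1, GINS2, MCM2, MCM10, RPA1 and TYMS. Over all genes tested 18.2% were called higher and 9.62% lower. The arrays did not overlap for any of the 10 genes, and 18.1% and 9.56% of all genes were called higher and lower without overlap. The median change was -0.08, against -0.01 over all genes. Quantile normalization of the values across arrays moved this split to 1 higher and 14 lower, and to 10.8% and 13.5% over all genes. Without Oct4med replicate 1 it was 1 higher and 2 lower, and without Oct4med replicate 2 it was 5 higher and 2 lower. CDT1, MCM4, MCM6 and PRIM2 were called in none of the 3 comparisons.

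**Figure D2:**
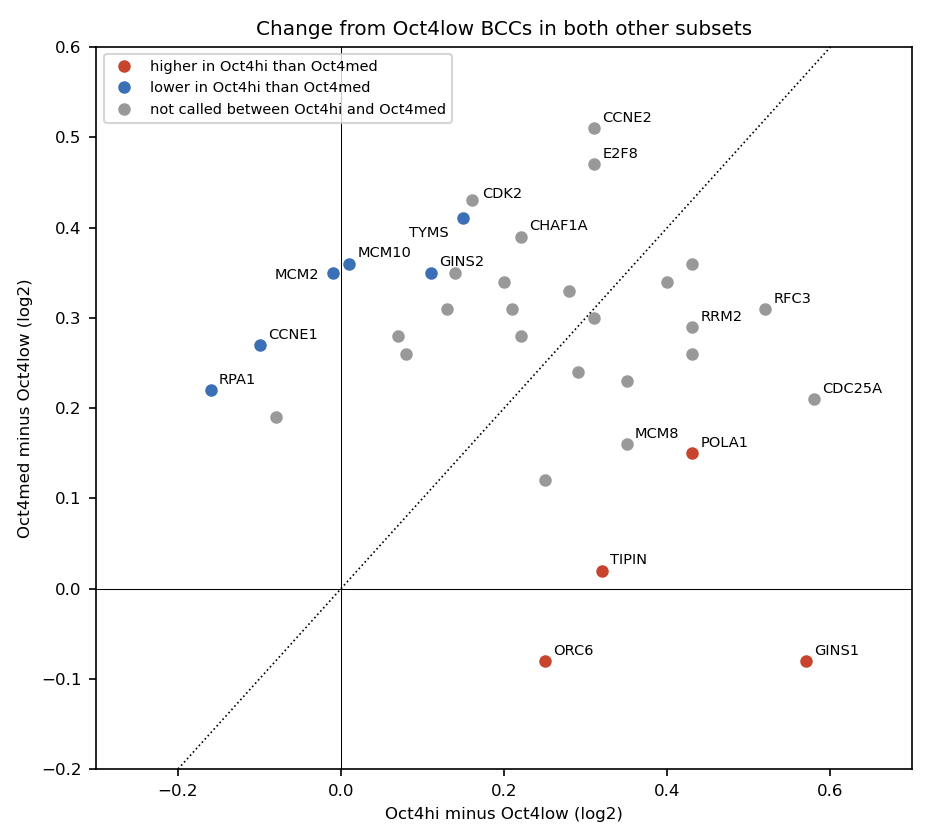
Change of the 34 genes from Oct4low BCCs on the log2 scale, in Oct4hi BCCs on the horizontal axis and in Oct4med BCCs on the vertical axis. Both axes use the same 4 Oct4low arrays, so a relation between them is not a result, and the dotted line marks equal change. Colour gives the direct comparison of Oct4hi with Oct4med BCCs, with GINS1, ORC6, POLA1 and TIPIN below the line and CCNE1, GINS2, MCM2, MCM10, RPA1 and TYMS above it.

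Among the 8 measured genes that license origins, CDC6, ORC6 and MCM7 were higher in Oct4hi than Oct4low BCCs (20.4% of all genes). CDC6, MCM2, MCM3 and MCM7 were higher in Oct4med than Oct4low BCCs (5.68% of all genes). MCM2 and ORC6 also differed between Oct4hi and Oct4med BCCs, in opposite directions, where 18.2% of all genes were called higher and 9.62% lower. MCM2 is a subunit of the ring of 6 MCM proteins that unwinds DNA, and its gene lies at chr3:127598411-127622436 in the GRCh38 build. It measured 10.74, 10.64, 10.68 and 10.68 in Oct4low, 11.05 and 11.03 in Oct4med, and 10.62, 10.68, 10.72 and 10.68 in Oct4hi arrays. Both Oct4med arrays lay above all others, and the Oct4low and Oct4hi arrays overlapped. The change was 0.35 in Oct4med against Oct4low (SE 0.08, limma adjusted p = 0.0073) and -0.36 in Oct4hi against Oct4med (SE 0.08, limma adjusted p = 0.0053), with -0.01 between Oct4hi and Oct4low (95% interval -0.15 to 0.13). MCM3, of the same ring, measured 11.54, 11.53, 11.59 and 11.53 in Oct4low, 11.77 and 11.89 in Oct4med, and 11.58, 11.61, 11.65 and 11.60 in Oct4hi arrays, with Oct4med above the rest. Its rise of 0.28 in Oct4med BCCs lost its call without Oct4med replicate 2 (limma adjusted p = 0.124) and without Oct4low replicate 2 (0.0573).

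MCM7, which belongs to the ring as well, was higher than in Oct4low BCCs in both other subsets, by 0.21 in Oct4hi (limma adjusted p = 0.024) and 0.31 in Oct4med (0.0164). It measured 10.94, 10.80, 10.85 and 10.91 in Oct4low, 11.15 and 11.23 in Oct4med, and 11.06, 11.09, 11.10 and 11.10 in Oct4hi arrays, with no overlap with Oct4low on either side. The call in Oct4hi BCCs was lost without Oct4low replicate 2 (0.0778) or Oct4hi replicate 2 (0.0568), and that in Oct4med BCCs without Oct4med replicate 2 (0.0846). MCM4 (0.20 and 0.34 against Oct4low) and MCM6 (-0.08 and 0.19) did not pass. The probe set that represents MCM6 was dim, at 5.84 to 6.32, and that of MCM4 had a wider spread, with an SD of 0.26 in Oct4hi arrays. The measured subunits of the ring thus did not share one pattern of calls. In Oct4med against Oct4low BCCs all of them were nevertheless positive, at 0.19 to 0.35, where 54.6% of all genes were positive. In Oct4hi against Oct4low BCCs they ran from -0.08 to 0.21.

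CDC6 brings the MCM ring to the origin. It measured 9.14, 8.98, 9.0 and 8.73 in Oct4low, 9.33 and 9.32 in Oct4med, and 9.44, 9.43, 9.37 and 9.35 in Oct4hi arrays. All Oct4low arrays lay below the others, by 0.43 for Oct4hi (SE 0.09, limma adjusted p = 0.00237) and by 0.36 for Oct4med BCCs (SE 0.10, limma adjusted p = 0.0293). A dimmer CDC6 probe set gave 0.35 and 0.25, and passed in Oct4hi only (adjusted p = 0.0557 in Oct4med). The Oct4med call of CDC6 was lost without any 1 of Oct4low replicates 1, 2 and 4 and of the Oct4med replicates. The brightest probe set was chosen again in each of these fits. Without Oct4low replicate 1 or Oct4med replicate 1 the Oct4hi change was 0.31 and 0.35, which are values of the dimmer probe set. The losses in those fits thus cannot be put down to the array left out. CDT1, the partner of CDC6 in loading, did not pass through its brighter probe set (0.08 and 0.26), whereas its dimmer probe set was higher in both subsets, by 0.30 (limma adjusted p = 0.00709) and 0.29 (0.0338).

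ORC6, a subunit of the origin recognition complex, had the opposite pattern to MCM2. It measured 10.32, 10.45, 10.47 and 10.43 in Oct4low, 10.24 and 10.43 in Oct4med, and 10.58, 10.73, 10.66 and 10.70 in Oct4hi arrays. The Oct4hi arrays lay above all others and the Oct4med arrays overlapped with Oct4low. ORC6 was higher in Oct4hi BCCs by 0.25 against Oct4low (SE 0.07, limma adjusted p = 0.0182) and by 0.34 against Oct4med (SE 0.09, limma adjusted p = 0.0175). The change against Oct4med was 0.24 without Oct4med replicate 1 (0.188), and that against Oct4low lost its call without Oct4low replicate 1 (0.0502) or Oct4hi replicate 2 (0.0558). Both calls were also lost when the values were quantile normalized again, with 0.12 against Oct4low (0.187) and 0.18 against Oct4med (0.146).

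The 3 measured genes of helicase activation all differed between Oct4hi and Oct4med BCCs, where 18.2% of all genes were called higher and 9.62% lower. GINS1 rose in Oct4hi BCCs, while GINS2 and MCM10 rose in Oct4med BCCs. GINS1 and GINS2 are subunits of the same 4-protein complex, which joins MCM and CDC45 to form the working helicase. GINS1 measured 9.95, 9.99, 10.05 and 9.90 in Oct4low, 9.89 and 9.91 in Oct4med, and 10.53, 10.55, 10.52 and 10.58 in Oct4hi arrays. Every Oct4hi array lay above every other array, and those of Oct4low and Oct4med overlapped. The level in Oct4hi BCCs was 1.49-fold that in Oct4low (log2 change 0.57, SE 0.06, limma adjusted p = 6e-05) and 1.57-fold that in Oct4med BCCs (0.65, SE 0.08, limma adjusted p = 0.000154). The latter was the largest change between these subsets among the 34 genes, and both calls held under every alternative that was run.

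GINS2 measured 10.32, 10.26, 10.38 and 10.31 in Oct4low, 10.68 and 10.65 in Oct4med, and 10.43, 10.46, 10.45 and 10.38 in Oct4hi arrays. Both Oct4med arrays were above all others. GINS2 was 0.35 higher in Oct4med than Oct4low BCCs (SE 0.08, limma adjusted p = 0.00871), a call lost only without Oct4med replicate 1 (0.0538) among the alternatives. Between Oct4hi and Oct4med BCCs the change was -0.24 (limma adjusted p = 0.0419), and that call was lost in 9 of the 10 fits with an array left out (adjusted p-values of 0.0531 to 0.185), all but that without Oct4low replicate 3. The calls of GINS1 and GINS2, which belong to one complex, thus fell in different subsets.

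MCM10, which is needed for the loaded helicase to start, measured 8.27, 8.29, 8.46 and 8.32 in Oct4low, 8.63 and 8.77 in Oct4med, and 8.45, 8.35, 8.31 and 8.26 in Oct4hi arrays. The Oct4med arrays were again above all others, and those of Oct4low and Oct4hi overlapped. The change was 0.36 in Oct4med against Oct4low (SE 0.09, limma adjusted p = 0.0165) and -0.36 in Oct4hi against Oct4med (SE 0.09, limma adjusted p = 0.0147). Of 2 dimmer MCM10 probe sets, one gave the same calls (0.36 and -0.41) and the other the same signs without a call (0.26 and -0.27). Both calls of the brightest were lost without Oct4med replicate 2 (0.103 and 0.0811).

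**Figure D3:**
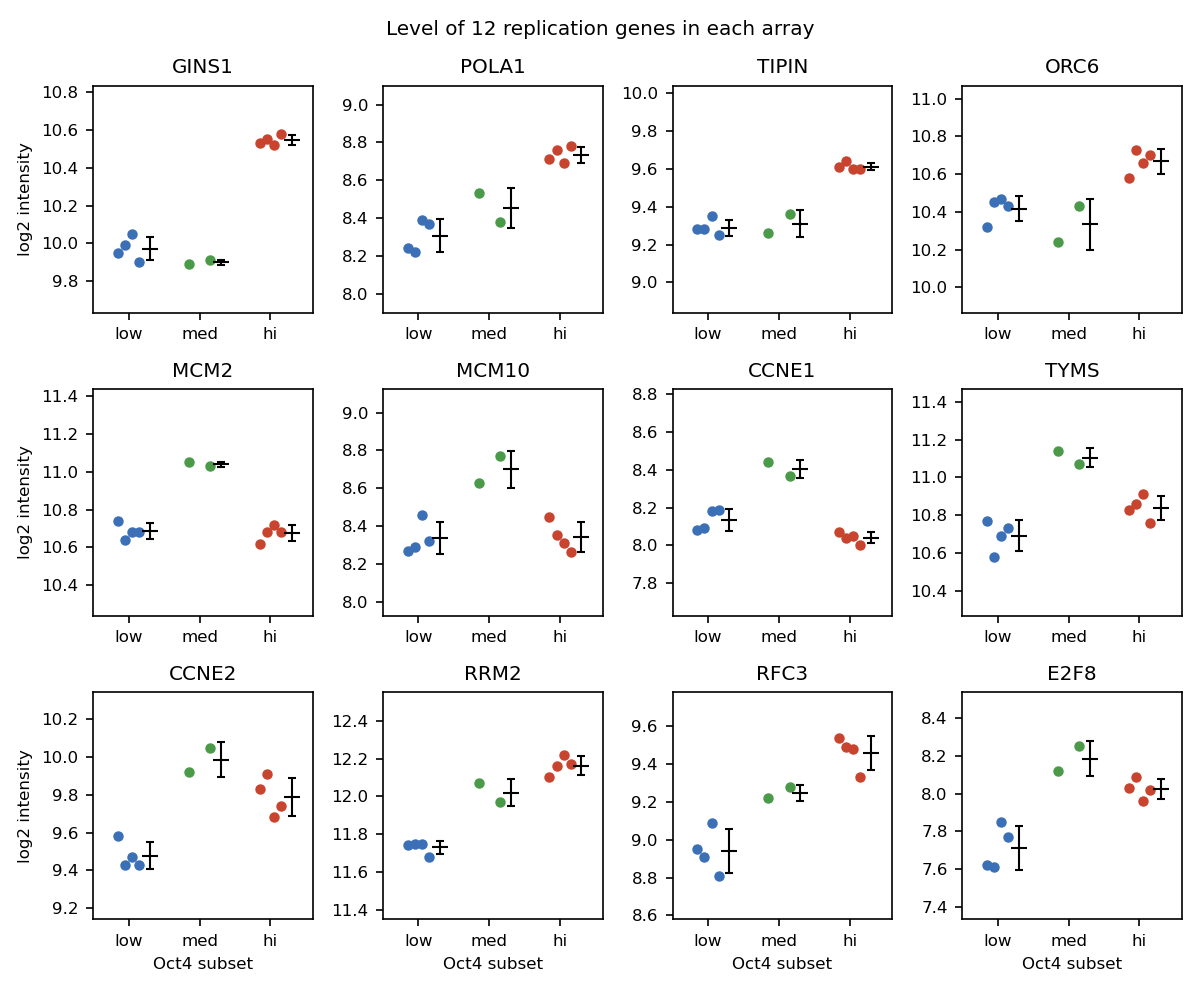
Log2 intensity of 12 replication genes in each array, with Oct4low (blue), Oct4med (green) and Oct4hi (red) BCCs on the horizontal axis. Each panel spans 1.2 log2 units, and the black marks give the mean and SD of 4, 2 and 4 arrays. In the top row the Oct4hi arrays lie above both other subsets, in MCM2, MCM10, CCNE1 and TYMS the Oct4med arrays lie above them, and in the bottom row the Oct4low arrays lie below.

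Of the 12 measured polymerases and proteins of the fork, 9 were higher in Oct4hi than Oct4low BCCs and none lower, where 20.4% of all genes were called higher. In Oct4med BCCs 5 of the 12 were higher than in Oct4low and none lower, where 5.68% of all genes were called higher. Between Oct4hi and Oct4med BCCs 2 were higher in Oct4hi, 1 was lower and 9 were not called, with a median change of 0.09. Over all genes 18.2% were called higher and 9.62% lower, with a median of -0.01. POLA1, the catalytic subunit of the polymerase that starts each new strand, measured 8.24, 8.22, 8.39 and 8.37 in Oct4low, 8.53 and 8.38 in Oct4med, and 8.71, 8.76, 8.69 and 8.78 in Oct4hi arrays. The Oct4hi arrays lay above all others, by 0.43 against Oct4low (SE 0.07, limma adjusted p = 0.000872) and by 0.28 against Oct4med (SE 0.09, limma adjusted p = 0.0346). The difference from Oct4med lost its call in 5 fits with an array left out, those without either Oct4med array or without Oct4hi replicates 1, 2 or 4 (adjusted p-values of 0.0568 to 0.166). PRIM2, of the primase that travels with POLA1, changed by 0.25 and 0.12 against Oct4low and was not called.

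POLE2, a subunit of the polymerase of the leading strand, was 0.43 higher in Oct4hi than Oct4low BCCs (SE 0.07, limma adjusted p = 0.000939). It measured 9.71, 9.74, 9.76 and 9.59 in Oct4low, 10.02 and 9.91 in Oct4med, and 10.11, 10.23, 10.13 and 10.05 in Oct4hi arrays, so that the subsets did not overlap and Oct4med lay between the others. The change in Oct4med BCCs was 0.26 and narrowly missed the threshold (limma adjusted p = 0.0531). FEN1, the flap nuclease of the lagging strand, measured 10.88, 10.67, 10.65 and 10.66 in Oct4low, 11.09 and 10.94 in Oct4med, and 11.01, 11.08, 11.10 and 10.90 in Oct4hi arrays. All Oct4low arrays lay below the others, and FEN1 gave 0.31 in Oct4hi (limma adjusted p = 0.0114) and 0.30 in Oct4med BCCs (0.0512). The call in Oct4hi BCCs was lost after quantile normalization (0.22, 0.0779).

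Replication factor C is the loader that places the sliding clamp on DNA, and its 4 small subunits were all measured. RFC2 (0.28 in Oct4hi and 0.33 in Oct4med), RFC3 and RFC5 were higher in both subsets than in Oct4low BCCs, while RFC4 passed in Oct4med only (0.35, limma adjusted p = 0.00884, against 0.14 in Oct4hi, 0.107). The call of RFC2 in Oct4hi BCCs was lost after quantile normalization (0.19, limma adjusted p = 0.076). RFC4 measured 10.72, 10.72, 10.84 and 10.81 in Oct4low, 11.08 and 11.17 in Oct4med, and 10.89, 10.91, 10.93 and 10.93 in Oct4hi arrays, with Oct4med highest and no overlap. RFC3 measured 8.95, 8.91, 9.09 and 8.81 in Oct4low, 9.22 and 9.28 in Oct4med, and 9.54, 9.49, 9.48 and 9.33 in Oct4hi arrays. Each subset thus occupied a range of its own, and RFC3 was 0.52 higher in Oct4hi (SE 0.08, limma adjusted p = 0.000484) and 0.31 higher in Oct4med BCCs (SE 0.10, limma adjusted p = 0.0414). RFC5 measured 10.21, 10.19, 10.26 and 10.17 in Oct4low, 10.52 and 10.57 in Oct4med, and 10.63, 10.58, 10.57 and 10.68 in Oct4hi arrays, a rise of 0.40 (limma adjusted p = 0.00064) and 0.34 (0.0107).

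Second probe sets of RFC2 and RFC3 gave calls of the same direction in both comparisons with Oct4low. Of the 2 other RFC5 probe sets, one gave 0.43 and 0.34 and was called in both, and the other, nearly as bright as the first, gave 0.17 and -0.03 and was called in neither. None of the 4 subunits differed between Oct4hi and Oct4med BCCs by the threshold, with changes of -0.21 to 0.21. The Oct4med calls were less firm than the Oct4hi calls. That of RFC3 was lost in 8 of the 10 fits with an array left out (adjusted p-values of 0.0505 to 0.143), that of RFC2 without either Oct4med array or without Oct4low replicate 2 (0.0649 to 0.135), and those of RFC4 and RFC5 without Oct4med replicate 2 (0.0606 and 0.0562).

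TIPIN, which with its partner Timeless protects a stalled fork, was higher only in Oct4hi BCCs. It measured 9.28, 9.28, 9.35 and 9.25 in Oct4low, 9.26 and 9.36 in Oct4med, and 9.61, 9.64, 9.60 and 9.60 in Oct4hi arrays. The Oct4hi arrays lay above the rest, by 0.32 against Oct4low (SE 0.06, limma adjusted p = 0.00238) and 0.30 against Oct4med (SE 0.08, limma adjusted p = 0.0143; 0.125 without Oct4med replicate 1). MCM8, a helicase related to the MCM ring with a role in recombination repair, rose by 0.35 in Oct4hi BCCs (limma adjusted p = 0.00249) and gave 0.16 in Oct4med BCCs. RPA1, of the complex that coats single-stranded DNA, went the other way. It measured 6.62, 6.56, 6.54 and 6.88 in Oct4low, 6.87 and 6.87 in Oct4med, and 6.46, 6.58, 6.40 and 6.52 in Oct4hi arrays, and was lower in Oct4hi than Oct4med BCCs (-0.38, SE 0.11, limma adjusted p = 0.0196). Its probe set was dim, and this call was lost without Oct4med replicate 1 (0.107) or 2 (0.0593). DSCC1, a subunit of an alternative clamp loader that acts in cohesion of sister chromatids, passed narrowly in both subsets (0.22, adjusted p = 0.0408, and 0.28, 0.0492). Its call in Oct4hi was lost in 6 fits and that in Oct4med in 9 of the 10 fits with an array left out.

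All 4 genes of nucleotide supply were measured, and 3 were called higher in each comparison with Oct4low. Over all genes 20.4% were called higher in Oct4hi and 5.68% in Oct4med BCCs. RRM1 and RRM2 form ribonucleotide reductase, which makes deoxynucleotides. RRM2 measured 11.74, 11.75, 11.75 and 11.68 in Oct4low, 12.07 and 11.97 in Oct4med, and 12.10, 12.16, 12.22 and 12.17 in Oct4hi arrays. The subsets did not overlap, with a rise of 0.43 in Oct4hi (SE 0.06, limma adjusted p = 0.000427) and 0.29 in Oct4med BCCs (SE 0.08, limma adjusted p = 0.0235; 0.145 without Oct4med replicate 1). RRM1, the other subunit, measured 11.63, 11.68, 11.73 and 11.62 in Oct4low, 11.85 and 11.95 in Oct4med, and 11.95, 12.06, 11.97 and 12.06 in Oct4hi arrays. It passed in Oct4hi (0.35, limma adjusted p = 0.00226) and not in Oct4med BCCs (0.23, 0.0657), although a dimmer RRM1 probe set passed in both (0.40 and 0.46).

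TYMS makes thymidylate and is the target of fluorouracil. It measured 10.77, 10.58, 10.69 and 10.73 in Oct4low, 11.14 and 11.07 in Oct4med, and 10.83, 10.86, 10.91 and 10.76 in Oct4hi arrays. The Oct4med arrays lay above all others, with a rise of 0.41 over Oct4low (SE 0.09, limma adjusted p = 0.00591; 0.0518 without Oct4med replicate 1). The difference between Oct4hi and Oct4med was -0.26 (SE 0.09, limma adjusted p = 0.0427), and it lost its call in 6 of the 10 fits with an array left out (adjusted p-values of 0.0531 to 0.228). TK1, the thymidine kinase of S phase, was higher in Oct4hi (0.29, limma adjusted p = 0.00425) and in Oct4med BCCs (0.24, 0.0476), the latter lost whichever array was left out and the former lost after quantile normalization (0.16, 0.0617). A second TK1 probe set, slightly dimmer, gave 0.28 in Oct4hi (limma adjusted p = 0.0129) and 0.27 in Oct4med BCCs (0.0587). It was thus called in Oct4hi BCCs only. TYMS and ENOSF1 overlap on opposite strands, and the probe set was taken as named.

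CHAF1A, the large subunit of the factor that places histones on new DNA, was the only measured gene of the 4 listed for chromatin. It measured 9.19, 9.21, 9.09 and 9.29 in Oct4low, 9.50 and 9.68 in Oct4med, and 9.50, 9.40, 9.33 and 9.44 in Oct4hi arrays. Every Oct4low array lay below the rest. The rise was 0.39 in Oct4med (SE 0.09, limma adjusted p = 0.0107; 0.0856 without Oct4med replicate 2) and 0.22 in Oct4hi BCCs (SE 0.08, limma adjusted p = 0.0375), and the latter was lost in 6 fits with an array left out (0.066 to 0.106).

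Of the 6 measured regulators of the G1/S step, 5 were called higher in Oct4med than Oct4low BCCs (5.68% of all genes) and 3 were called higher in Oct4hi than Oct4low BCCs (20.4% of all genes). Of the 6, only CCNE1 was called between Oct4hi and Oct4med BCCs, and it was lower in Oct4hi (9.62% of all genes). Cyclin E, the partner of CDK2 that drives entry into S phase, is encoded by CCNE1 and CCNE2. CCNE2 had the largest rise of the 34 genes in Oct4med BCCs. It measured 9.58, 9.43, 9.47 and 9.43 in Oct4low, 9.92 and 10.05 in Oct4med, and 9.83, 9.91, 9.68 and 9.74 in Oct4hi arrays. It rose 1.42-fold in Oct4med (0.51, SE 0.09, limma adjusted p = 0.00254) and 1.24-fold in Oct4hi BCCs (0.31, SE 0.08, limma adjusted p = 0.00747), and both calls held under every alternative. A dimmer CCNE2 probe set was also called in both, at 0.89 in Oct4med and 0.59 in Oct4hi BCCs.

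CCNE1 differed from CCNE2. It measured 8.08, 8.09, 8.18 and 8.19 in Oct4low, 8.44 and 8.37 in Oct4med, and 8.07, 8.04, 8.05 and 8.0 in Oct4hi arrays. The Oct4med arrays were above all others and the Oct4hi arrays below all others. CCNE1 was higher in Oct4med than Oct4low BCCs by 0.27 (SE 0.08, limma adjusted p = 0.0336) and lower in Oct4hi than Oct4med BCCs (-0.36, SE 0.08, limma adjusted p = 0.00622), whereas the change of -0.10 in Oct4hi against Oct4low did not pass (0.28). The first call was lost without Oct4low replicate 1 or 2 or either Oct4med array (adjusted p-values of 0.0622 to 0.171), and the second without Oct4med replicate 1 (0.0639).

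CDK2, the kinase bound by cyclin E, measured 6.58, 6.2, 6.28 and 6.42 in Oct4low, 6.90 and 6.70 in Oct4med, and 6.53, 6.61, 6.68 and 6.30 in Oct4hi arrays. The change of 0.43 in Oct4med BCCs passed (SE 0.13, limma adjusted p = 0.0339) and that of 0.16 in Oct4hi BCCs did not. This probe set was dim, near the level of RPA1, and its call was lost in 5 of the 10 fits with an array left out (0.0518 to 0.228). E2F8, a repressor of the E2F family that is itself switched on late in G1, measured 7.62, 7.61, 7.85 and 7.77 in Oct4low, 8.12 and 8.25 in Oct4med, and 8.03, 8.09, 7.96 and 8.02 in Oct4hi arrays. All Oct4low arrays lay below the rest, by 0.47 for Oct4med (SE 0.09, limma adjusted p = 0.00451) and 0.31 for Oct4hi BCCs (SE 0.08, limma adjusted p = 0.00835). DTL, which directs the destruction of CDT1 in S phase, measured 10.73, 10.69, 10.63 and 10.64 in Oct4low, 10.92 and 11.06 in Oct4med, and 10.77, 10.83, 10.78 and 10.82 in Oct4hi arrays. The subsets did not overlap. DTL was 0.31 higher in Oct4med BCCs (limma adjusted p = 0.0177; 0.109 without Oct4med replicate 2) and gave 0.13 in Oct4hi BCCs.

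CDC25A, the phosphatase that activates CDK2, had the largest change between Oct4hi and Oct4low BCCs and the largest spread. It measured 7.07, 7.43, 7.27 and 6.94 in Oct4low, 6.91 and 7.86 in Oct4med, and 7.85, 7.93, 7.53 and 7.71 in Oct4hi arrays. The Oct4hi arrays lay above the Oct4low arrays, but of the 2 Oct4med arrays one was below all Oct4low arrays and the other within the Oct4hi range. The rise in Oct4hi BCCs was 0.58 (SE 0.18, limma adjusted p = 0.0236), and it lost its call without Oct4low replicates 1 or 4 or Oct4hi replicates 1 or 2 (adjusted p-values of 0.0559 to 0.0714). A dimmer CDC25A probe set with less spread gave 0.32 (limma adjusted p = 0.00811).

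Because E2F factors are known to act near the start of many replication genes, the promoters of members with opposite patterns are shown beside their values. They are GINS1 and POLA1, higher in Oct4hi than Oct4med BCCs, and MCM2 and GINS2, lower. Each is the 250 bases before the RefSeq start in GRCh38.p14, 5′ to 3′ on the strand of the gene, at chr20:25407423-25407672 (+), chrX:24693668-24693917 (+), chr3:127598161-127598410 (+) and chr16:85688955-85689204 (-). Capitals mark E2F words (TTTCCCGC, TTTCGCGC, TTTGCCGC or TTTGGCGC), the CCAAT box (CCAAT) and the GC box (GGGCGG), searched on both strands, so that some capitals are a word read on the other strand.
GINS1: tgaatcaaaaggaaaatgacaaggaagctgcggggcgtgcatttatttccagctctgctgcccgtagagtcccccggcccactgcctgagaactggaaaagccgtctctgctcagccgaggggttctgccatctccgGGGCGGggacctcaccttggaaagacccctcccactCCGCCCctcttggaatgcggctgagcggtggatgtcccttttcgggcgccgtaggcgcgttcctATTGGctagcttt
POLA1: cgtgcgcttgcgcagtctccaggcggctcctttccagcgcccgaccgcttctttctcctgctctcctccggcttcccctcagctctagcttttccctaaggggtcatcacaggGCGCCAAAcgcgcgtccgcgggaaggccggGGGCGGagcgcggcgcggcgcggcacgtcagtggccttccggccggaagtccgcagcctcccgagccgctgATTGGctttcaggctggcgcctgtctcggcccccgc
MCM2: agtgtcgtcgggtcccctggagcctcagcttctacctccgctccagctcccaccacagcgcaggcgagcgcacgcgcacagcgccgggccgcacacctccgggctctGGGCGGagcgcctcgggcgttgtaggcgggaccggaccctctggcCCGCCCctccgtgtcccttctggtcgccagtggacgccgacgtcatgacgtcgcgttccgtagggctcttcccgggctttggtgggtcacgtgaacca
GINS2: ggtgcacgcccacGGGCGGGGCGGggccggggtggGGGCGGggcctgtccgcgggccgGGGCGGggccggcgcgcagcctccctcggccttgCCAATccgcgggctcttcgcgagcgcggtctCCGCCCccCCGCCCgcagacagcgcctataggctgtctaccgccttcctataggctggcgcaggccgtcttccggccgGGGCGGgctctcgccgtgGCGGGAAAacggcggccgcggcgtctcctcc
An E2F word stands 137 to 130 bases before the start of POLA1 and 31 to 24 bases before that of GINS2. None of these 4 words is in the windows of GINS1 and MCM2. The choice was made among called genes with 1 window. GINS1 and MCM2 had the lowest adjusted p-value of their direction. POLA1 and GINS2 had the lowest among genes with an E2F word, so the choice itself fixed that they carry one. GINS2 has 7 GC boxes, of which 1 pair overlaps by a base, POLA1 has 1, and GINS1 and MCM2 have 2 each. A CCAAT box is present in all but MCM2.

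A window was given for 29 of the 34 genes. An E2F word was found in 11 of the 29 (37.9%), against 3.4% of 27305 genes with a window, a CCAAT box in 19 (65.5%, against 37%), and a GC box in 20 (69%, against 46.2%). The share with an E2F word was 55.2% in a longer window of 300 bases that runs past the start, against 3.99% of the same 27305 genes. These are all genes with a window, not only those tested on the arrays, and they were not matched to the members for expression. By the comparison of Oct4hi with Oct4med BCCs, an E2F word was in the window of 2 of the 4 genes called higher (POLA1 and TIPIN), 2 of the 6 called lower (GINS2 and TYMS) and 7 of the 19 not called with a window. The words were thus present in genes of each pattern. A match is only a match of letters.

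Other replication factors, outside the 48 genes, were also mostly higher in Oct4hi BCCs. Of 37 such factors 17 were tested. Against Oct4low BCCs 13 were higher and 1 lower in Oct4hi BCCs (median 0.35). Over all genes 20.4% were called higher and 14.7% lower there (median 0.02). In Oct4med BCCs 5 were higher than in Oct4low and none lower (median 0.24), against 5.68% and 11.7% of all genes (median 0.03). SUPT16H and SSRP1 form the histone chaperone FACT, and they changed by 0.93 (limma adjusted p = 0.00675) and 0.55 (0.00346) in Oct4hi BCCs. SUPT16H was also higher in Oct4med BCCs (1.09, limma adjusted p = 0.0145). ATAD5, which unloads the clamp, rose by 0.55 (0.00135) and 0.45 (0.0205) in Oct4hi and Oct4med BCCs, and ORC5 by 0.51 in Oct4hi BCCs (0.00731). NASP, a histone chaperone, was the gene that was lower in Oct4hi than Oct4low BCCs (-0.31, limma adjusted p = 0.00386). Between Oct4hi and Oct4med BCCs, POLA2, the partner of POLA1 (0.32), and DBF4, the activator of CDC7 (0.25), were higher. NASP (-0.39) and RFC1, the large subunit of the clamp loader (-0.37), were lower. Over all genes 18.2% were called higher and 9.62% lower in this comparison.

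The genes of G2 and mitosis separated the subsets in another way. Of 18 tested from a list of 27, 16 were higher and none lower in Oct4hi than Oct4low BCCs (median 0.49). Over all genes 20.4% were called higher and 14.7% lower (median 0.02). In Oct4med against Oct4low BCCs 3 were higher and none lower (median 0.17), against 5.68% and 11.7% of all genes (median 0.03). In Oct4hi against Oct4med BCCs 8 were higher and none lower (median 0.26), against 18.2% and 9.62% of all genes (median -0.01). Their median after centring was -0.316 to -0.152 in Oct4low, -0.128 and 0.022 in Oct4med, and 0.203 to 0.283 in Oct4hi arrays. The Oct4med arrays thus stood between the others for mitotic genes, and among or above the Oct4hi arrays for replication genes. TOP2A, the topoisomerase that untangles replicated DNA, rose by 0.83 in Oct4hi (limma adjusted p = 2.56e-05) and 0.38 in Oct4med BCCs (0.0227). KIF23, a motor of cell division, was 0.74 higher in Oct4hi than Oct4med BCCs (limma adjusted p = 0.000138), followed by UBE2C (0.59, 0.000405) and AURKA (0.55, 0.000904). The difference between the replication and mitotic lists was not tested.

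Of the genes that act earlier in G1, 16 of 22 listed were tested. In Oct4hi against Oct4low BCCs 3 were higher and 2 lower, where 20.4% of all genes were called higher and 14.7% lower. In Oct4med against Oct4low BCCs 2 were higher and 2 lower, where the shares of all genes were 5.68% and 11.7%. In Oct4hi against Oct4med BCCs 2 were higher and 5 lower, where they were 18.2% and 9.62%. CDKN1A encodes p21, an inhibitor of CDK2 that also binds the sliding clamp, and it changed by -0.72 in Oct4med against Oct4low BCCs (SE 0.08, limma adjusted p = 7.49e-05) and by 0.73 in Oct4hi against Oct4med BCCs (SE 0.08, limma adjusted p = 6.11e-05). Its level did not pass between Oct4hi and Oct4low BCCs (0.01, 95% interval -0.13 to 0.15). CDKN1B, which encodes p27, had the reverse pattern (0.49 in Oct4med against Oct4low, limma adjusted p = 0.00422, and -0.38 in Oct4hi against Oct4med, 0.0143). CCND1, cyclin D1, was lower in Oct4med than Oct4low BCCs (-0.32, limma adjusted p = 0.0264). In Oct4hi BCCs CDKN1C, which encodes p57, was lower than in Oct4low (-0.60, limma adjusted p = 8.55e-05) and RBL1, the pocket protein p107, was higher (0.56, 0.0114).

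**Figure D4:**
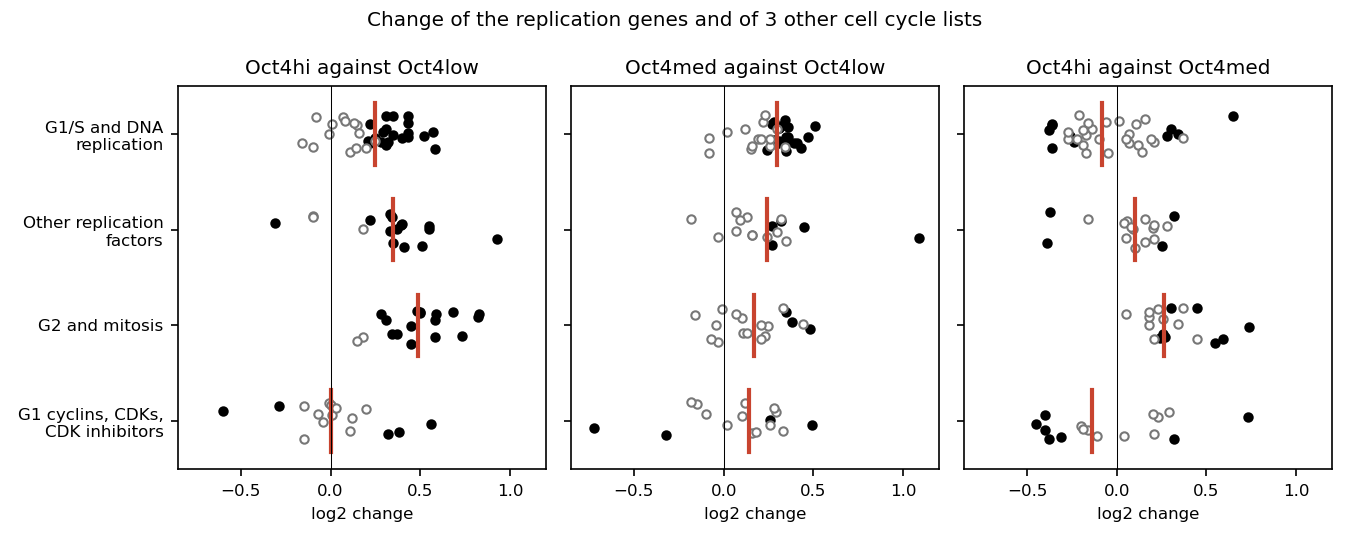
Log2 change of the replication genes and of 3 other cell cycle lists in the 3 comparisons, with 1 point for each gene tested (34, 17, 18 and 16 genes from top to bottom). Filled points were called and open points were not, and the red bar is the median of a list. In Oct4hi against Oct4low BCCs the medians are 0.25, 0.35, 0.49 and 0, and in Oct4hi against Oct4med BCCs they are -0.08, 0.10, 0.26 and -0.14.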

How the data were processed

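Total RNA of 10 sorted samples was measured on Human Genome U133 Plus 2.0 arrays. The deposited values are log2 intensities that the authors background-corrected and normalized by robust multi-array average (RMA) in BRB-Array Tools. They then left out features near background or that changed little, which left 25750 deposited probe sets (2.37 to 14.46), so low and stable genes are under-represented and shares of called genes refer to the rest. RMA combines the probes of a set and can compress fold changes. The number of arrays limits the precision.

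23 control probe sets were left out. The test took the 13883 probe sets that reached the median of the array in 2 arrays or more. Symbols came from the platform annotation, in which 18683 probe sets had 1 symbol, 799 several and 6268 none, and 2 of PRIM2 with several were left out. limma 3.58.1 in R 4.3.3 fitted a mean for each subset over all 10 arrays, with two-sided moderated tests and Benjamini-Hochberg adjustment over all tested probe sets, and was tested on simulated data. Each gene was its brightest probe set. Replicates are those of the labels, and p-values measure the spread between these arrays.

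The genes, their roles and the lists of other replication factors, G1 genes, G2 and mitosis genes and cell markers were chosen with earlier results of these data known. All values by array were given for up to 8 genes with the largest changes per comparison, called and without overlap, and for the brightest of each role. Other genes were named from the lists, up to 4 with the largest called change. Some, not all, of the genes behind a count of 5 or fewer were also named, chosen after their values were seen. Members with a dimmer second probe set that was tested were described with it. Promoters, gene positions and starts came from RefSeq (GRCh38.p14), by symbol, with 29 of 34 matched. Alternatives were another filter, normalization, variance model, test, fit, probe set rule, a replicate block and each array left out. With an array left out, the brightest probe set of each gene was chosen again.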

Additional observations from a re-analysis of the deposited data

Results flagged for a closer look

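In 68 groups of 4 arrays (34 genes in Oct4low and in Oct4hi BCCs), 5 had an array that stood apart from the other 3 by Dixon's test, where chance gives about 1 in 20. The ratio of the gap to the range was 0.845 for MCM3 in Oct4low replicate 3 (11.59 against 11.53 to 11.54), 0.923 for MCM7 in Oct4hi replicate 1 (11.06 against 11.09 to 11.10) and 0.928 for RFC2 in Oct4low replicate 2 (9.64 against 9.89 to 9.91). It was 0.898 for FEN1 in Oct4low replicate 1 (10.88 against 10.65 to 10.67) and 0.865 for RRM2 in Oct4low replicate 4 (11.68 against 11.74 to 11.75). The 5 arrays apart came from 5 different arrays of the series, and for MCM3, MCM7 and RRM2 the gap was under 0.1 on the log2 scale.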

How the results depend on the processing

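No direction reversed, and no replication gene was called lower than in Oct4low BCCs under any alternative. Of 50 calls, 16 held under all of them and 34 were lost under at least 1. In Oct4hi against Oct4low BCCs, 20 genes were higher, 13 after a further quantile normalization and 12 without probe sets of the suffixes _x_at and _s_at (20 genes left), with 15 to 20 when an array was left out. The median of 0.25 became 0.19 after quantile normalization and 0.30 without those suffixes, and 0.23 to 0.28 with an array left out. In Oct4med against Oct4low BCCs, 20 became 9 with no filter, 13 with array weights, 10 with only the compared arrays and 9 without those suffixes. An ordinary t-test with no sharing of variance between genes gave 10. The count was 12 to 19 with an Oct4low or Oct4hi array left out, and fewer without either Oct4med array. The median of 0.29 became 0.38 after quantile normalization and was 0.28 to 0.33 with an array left out. In Oct4hi against Oct4med BCCs, 4 higher became 1 with no filter and 1 after quantile normalization, and 1 to 5 with an array left out. The 6 lower became 14 after quantile normalization, 3 with array weights and 3 without those suffixes, and 2 to 6 with an array left out. The median of -0.08 became -0.23 after quantile normalization, -0.04 with arrays shifted to a common median and -0.01 without those suffixes, and was -0.12 to -0.05 with an array left out. The causes were not tested.

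The replicate numbers were not used as pairs, since no label ties arrays of different subsets to one experiment. Deviations of arrays with the same number correlated at -0.26 to 0.28 over 8 pairs. Between arrays of different numbers and subsets the correlations ran from -0.51 to 0.51, with 0.41 for Oct4low 2 and Oct4hi 4. The deviations of the 2 Oct4med arrays mirror each other (correlation -1), so each correlation with one is the negative of that with the other. These ranges therefore cannot decide on pairing. Whether arrays of different subsets came from the same experiment was not tested, and the main fit takes them as unpaired. With the number as a replicate block, 17 and 7 genes were higher in Oct4hi and Oct4med than Oct4low BCCs, and 1 was higher and 3 lower in Oct4hi than Oct4med BCCs. With 2 Oct4med arrays, the left-out fits take the spread of a lone array from the other subsets. Signal near background limits MCM6, CDK2 and RPA1.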
